A study of Homo sapiens with 6 samples.

Results

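The genes TPX2, NUSAP1, PRC1, ASPM, DLGAP5, HMMR, ANLN, ECT2, RACGAP1 and CKAP2 encode proteins that build the mitotic spindle and divide the cell after it. They were taken by name from an RNA sequencing table of KYSE-150, a long-established line from a squamous cell carcinoma of the human oesophagus, and each matched 1 row, which gave 10 genes of 50868. The table held 6 libraries. In 3 of them, titled nc, the cells carried no stated genotype, and the series text calls them wild type. In the other 3, titled si and called siZNF514 here, ZNF514 is labelled as a knockout made with siZNF514. The labels thus use the word knockout beside a name of the kind given to short interfering RNAs, which reduce a transcript but leave the gene in place, and they are followed here without choosing between them. Dose, time after treatment and any control siRNA in nc remain unstated in those labels. All 6 libraries came from this 1 line, and no label ties a library to a culture of its own, so p-values reflect the spread between the libraries alone, and part or all of it may be technical.

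A spindle assembles when microtubules are nucleated near chromosomes and at the poles, bundled, and focused. Around chromosomes the GTPase Ran frees spindle factors such as TPX2 from importins. After the chromosomes part, antiparallel microtubules are crosslinked into a central spindle, which marks the cortex for RhoA activation and for the contractile ring that pinches the cell apart. Transcripts of these genes are known to peak late in the cell cycle, so their level in a dividing culture depends on how many cells are near mitosis. In a bulk library, more such cells and more RNA per cell cannot be told apart.

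The libraries held 12175259 to 14318909 counts. Mitochondrial transcripts took 4.84% to 4.93% of them in nc and 3.89% to 3.98% in siZNF514, and 20842 to 21076 genes had a count in nc against 19384 to 20216 in siZNF514. The part of these differences in the results below was not tested. ZNF514 itself had 239, 273 and 261 counts in nc and 64, 82 and 63 in siZNF514, a level of 27.3% of nc, with the groups apart. Of 11 epithelial markers, not all of them particular to squamous epithelium, 10 had enough counts to test, among them KRT5 at a mean FPKM (fragments per kilobase of gene length, scaled to library size) of 83.6 in nc and 53.5 in siZNF514, while SOX2 was near 0 (0.0541 and 0.0282). Of these 10, 5 fell, 2 rose (EPCAM by 0.41 and DSP by 0.17 on the log2 scale, the latter not past with total counts alone at 0.041) and 3 did not pass the edgeR test described below. By that test, 25.1% of all genes tested fell and 25.5% rose. The summed FPKM of the 11 was 353 to 377 in nc and 258 to 286 in siZNF514. The library siZNF514 replicate 3 stood apart in some markers of other cell types: it held 112 counts of COL3A1, 49 of COL1A2, 33 of DCN and 49 of LYZ, which had no count in the other siZNF514 libraries and at most 7 in any nc library. The summed FPKM of 7 fibroblast markers was 1.74 there against 0.0834 to 0.551 elsewhere, and that of 6 leukocyte markers was 2.2 against 0.351 to 0.971. THY1 had 1 count there and PTPRC, the pan-leukocyte marker, had 5. PDGFRB (3 counts there, 3 to 18 in nc) and CSF1R (57 there, 41 to 69 in nc) lay within their nc range. CD14 was near it (13 there, 4 to 11 in nc). Without that library each of the 10 genes kept its call, 9 higher and CKAP2 not past, with a median log2 fold change of 0.58 in place of 0.52.

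Many promoters of late cell cycle genes carry a CHR (cell cycle genes homology region), the site of MuvB complexes, downstream of CCAAT boxes, the site of NF-Y. The sequences are shown here because most of the genes with a window share these letters. RefSeq start-site windows (GRCh38.p14; 250 bases before the start and 50 from it) were found for 8 of the 10 genes. TTTGAA and CCAAT were searched on both strands. TTTGAA was present in 7 of these 8 genes, against 18.2% of all 27305 genes with a window and 13.4% of the genes tested. CCAAT was present in 6 of the 8, against 39.7% of all genes with a window and 43.2% of the genes tested. In 5 genes a TTTGAA match began within 25 bases of the start. Those 5 are printed from 120 bases before the start to 25 after it, 5′ to 3′ on the strand of the gene, with both motifs or their reverse complements in capitals.
PRC1 (chr15:90994511-90994655, minus strand): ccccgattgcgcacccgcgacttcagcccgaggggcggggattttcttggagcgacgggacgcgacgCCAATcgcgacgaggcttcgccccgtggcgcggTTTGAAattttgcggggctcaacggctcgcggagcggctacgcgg
HMMR (chr5:163460512-163460656, plus strand): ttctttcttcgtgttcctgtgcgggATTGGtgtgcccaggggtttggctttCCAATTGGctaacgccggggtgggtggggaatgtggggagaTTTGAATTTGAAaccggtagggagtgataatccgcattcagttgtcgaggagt
ANLN (chr7:36389742-36389886, plus strand): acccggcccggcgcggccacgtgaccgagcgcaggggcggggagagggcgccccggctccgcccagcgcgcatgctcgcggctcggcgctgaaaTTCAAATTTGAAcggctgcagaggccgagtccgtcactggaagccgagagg
DLGAP5 (chr14:55191561-55191705, minus strand): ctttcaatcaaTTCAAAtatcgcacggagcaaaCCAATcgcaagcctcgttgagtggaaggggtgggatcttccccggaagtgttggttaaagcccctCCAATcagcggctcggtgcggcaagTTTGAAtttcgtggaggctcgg
NUSAP1 (chr15:41332761-41332905, plus strand): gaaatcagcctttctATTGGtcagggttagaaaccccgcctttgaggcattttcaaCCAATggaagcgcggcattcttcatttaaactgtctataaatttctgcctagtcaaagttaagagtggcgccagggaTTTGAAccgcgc
In HMMR the TTTGAA matches lie in tandem at -28 and -22, and a CCAAT and its reverse complement overlap at -69 and -66. In ANLN a forward match at -20 abuts a reverse match at -26, and its window holds no CCAAT. PRC1 has 1 of each, at -20 and -53. In DLGAP5 and NUSAP1 the match nearest the start lies just after it, at 4 and 14, with CCAAT upstream. The ASPM match, on the reverse strand, lies farther out at -113, with CCAAT at 4 places. ECT2 has matches at -115 and 35, and a second RefSeq window of ECT2 holds TTTGAA as well. The CKAP2 window holds neither motif. Its start (chromosome 13, 52455988) is not the first base of the gene in RefSeq. By the gene spans of the deposited table, the starts used for PRC1, CKAP2 and HMMR lie 1094, 559 and 429 bases inside the gene, and those of the other 5 genes 25 to 187 bases inside. A match is a string of letters, not a shown binding site.

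**Figure D1:**
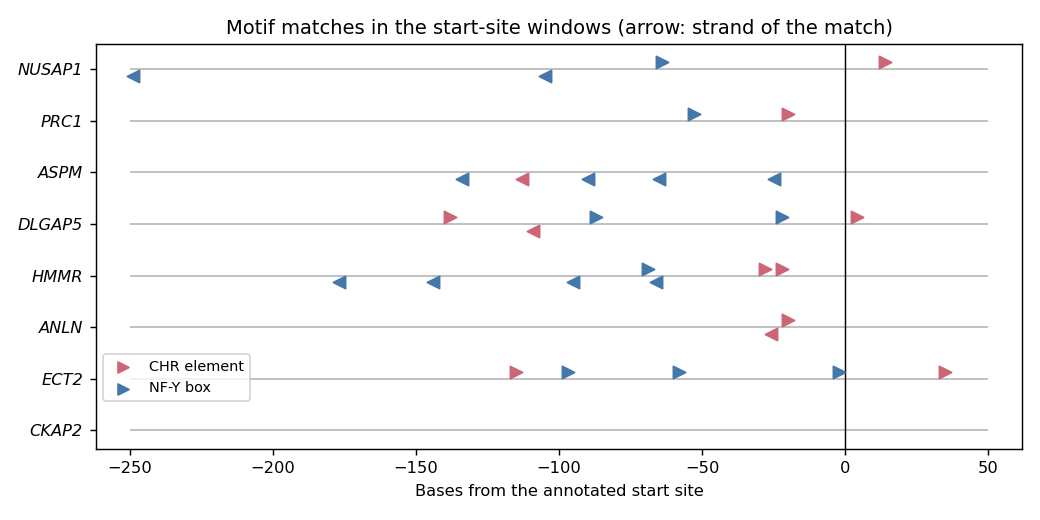
Positions of TTTGAA (CHR element, red) and CCAAT (NF-Y box, blue) in the RefSeq start-site windows of 8 genes; the x axis is the distance in bases of the first base of the match from the annotated start, and arrows give the strand. In 5 genes (NUSAP1, PRC1, DLGAP5, HMMR and ANLN) a CHR match begins within 25 bases of the start, and the CKAP2 window holds none.

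Other genes of division from lists of the same kind were searched likewise. Among genes with a window, TTTGAA was in 7 of 9 central spindle genes, 9 of 14 spindle pole genes and 9 of 25 nucleation genes. It was in 2 of 16 contractile ring genes, 2 of 15 abscission genes and 0 of 20 DNA replication genes. These shares are descriptions and were not tested.

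The main comparison was siZNF514 against nc. All 10 genes had a log2 fold change (siZNF514 over nc) above 0, 9 of them passed an adjusted p of 0.05 as higher, and none passed as lower. The edgeR quasi-likelihood F test was used, adjusted by Benjamini-Hochberg over 14250 genes, and CKAP2 did not pass. Over all genes tested, 25.5% passed as higher and 25.1% as lower (50.6% in all), so a call for a single gene is common in these data. In CPM (counts scaled to library size with TMM factors), every siZNF514 library lay above every nc library for the same 9 genes, against 30.0% of all genes tested. The median log2 fold change of the 10 was 0.52, against -0.01 over all genes, whose middle values ran from -0.39 to 0.31 between the quartiles. Summed over the 10 genes the level was 1741, 1683 and 1673 CPM in nc and 2552, 2485 and 2364 CPM in siZNF514, a ratio of means of 1.45. All 10 passed the filter on low counts, with at least 642 counts in every library. Gene identifiers and positions below are those of the deposited table (hg38) and span the whole gene.

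**Figure D2:**
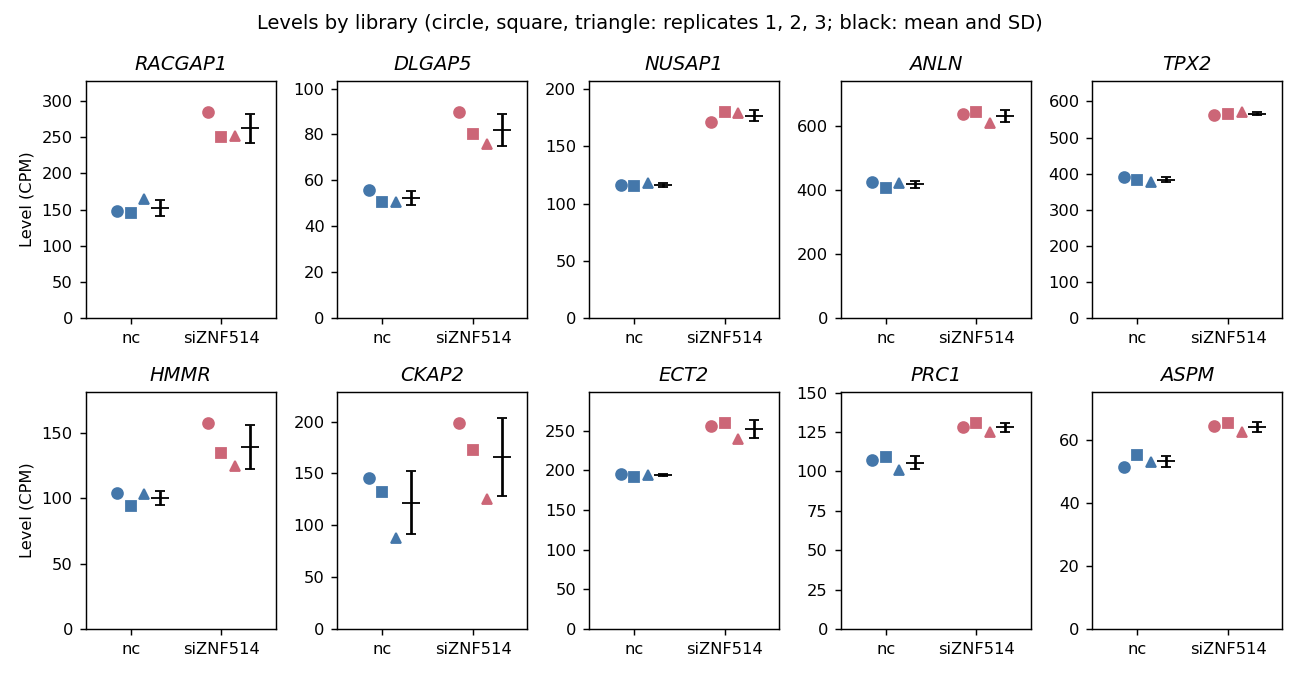
Level in CPM (y axis, from 0) of the 10 genes in the nc (blue) and siZNF514 (red) libraries; symbols are replicates 1, 2 and 3, and black marks are the mean and SD of 3 libraries. The groups are apart in 9 genes, and in CKAP2 the lowest siZNF514 library (125 CPM) is below the nc libraries at 146 and 132 CPM.

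TPX2 (ENSG00000088325; chromosome 20, 31739271 to 31801805, plus strand) promotes microtubule nucleation near chromosomes and binds and activates Aurora A. Its level was 391, 383 and 377 CPM in nc and 562, 565 and 571 CPM in siZNF514. The libraries of each group were close together and the groups far apart. It rose by 0.56 on the log2 scale (SE 0.03; edgeR adjusted p = 1.95e-05), the smallest adjusted p of the 10.

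HMMR (ENSG00000072571; chromosome 5, 163460203 to 163491945, plus strand), also known as RHAMM, binds microtubules and sits at spindle poles with TPX2. It was at 104, 94.3 and 103 CPM in nc and 158, 135 and 125 CPM in siZNF514. The siZNF514 libraries spread widely, with a coefficient of variation of 11.9% against 5.38% in nc, but did not reach down to nc. It rose by 0.47 (SE 0.09, adjusted p = 0.00424).

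NUSAP1 (ENSG00000137804; chromosome 15, 41332694 to 41381050, plus strand) crosslinks spindle microtubules near chromatin under the control of Ran. It was at 116, 115 and 118 CPM in nc and 171, 180 and 179 CPM in siZNF514. The gap was many times the spread within either group, and it rose by 0.60 (SE 0.04, adjusted p = 5.03e-05).

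DLGAP5 (ENSG00000126787; chromosome 14, 55148112 to 55191678, minus strand), also called HURP, is another cargo of the Ran pathway and stabilizes the microtubule fibres that attach to kinetochores. It was at 55.8, 50.7 and 50.6 CPM in nc and 89.8, 80.3 and 75.9 CPM in siZNF514. The groups did not overlap, and it rose by 0.65 (SE 0.08, adjusted p = 0.000539).

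ASPM (ENSG00000066279; chromosome 1, 197084128 to 197146694, minus strand) gathers microtubule minus ends at the poles, and its loss causes primary microcephaly. It was at 51.5, 55.1 and 52.9 CPM in nc and 64.2, 65.4 and 62.5 CPM in siZNF514. The groups were apart, though by less than for TPX2 or NUSAP1. It rose by 0.27 (SE 0.05, adjusted p = 0.005), the smallest estimate of the 10, and it did not pass when libraries were scaled by total counts alone (0.14, adjusted p = 0.0593).

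CKAP2 (ENSG00000136108; chromosome 13, 52455429 to 52476628, plus strand) is a microtubule-associated protein of the spindle. It was at 146, 132 and 87.3 CPM in nc and 199, 173 and 125 CPM in siZNF514. Replicate 3 was the lowest library of both groups, and the groups overlapped. Its log2 fold change of 0.45 had an SE of 0.22 and a 95% interval of -0.08 to 0.97, and it did not pass (adjusted p = 0.138). The interval includes both 0 and the largest estimate among the other 9. Leaving out 1 library gave 0.26 to 0.62, and it passed in none of those fits. Its coefficient of variation was 25.1% in nc and 22.8% in siZNF514, the highest of the 10 in each group.

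PRC1 (ENSG00000198901; chromosome 15, 90966038 to 90995629, minus strand) here is protein regulator of cytokinesis 1, which crosslinks antiparallel microtubules of the central spindle, not the Polycomb complex of the same abbreviation. It was at 107, 109 and 101 CPM in nc and 128, 131 and 125 CPM in siZNF514. The groups were apart, and it rose by 0.28 (SE 0.05, adjusted p = 0.00262), or by 0.15 with total counts alone (adjusted p = 0.0353).

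RACGAP1 (ENSG00000161800; chromosome 12, 49976923 to 50033136, minus strand) pairs with the kinesin KIF23 to form centralspindlin, which bundles the central spindle and brings ECT2 to it. It was at 148, 145 and 165 CPM in nc and 285, 250 and 252 CPM in siZNF514. It had the largest estimate of the 10, at 0.78 (SE 0.07, adjusted p = 0.000172), and every siZNF514 library was well above the highest nc library.

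ECT2 (ENSG00000114346; chromosome 3, 172750682 to 172821474, plus strand) is the exchange factor that activates RhoA at the equator. It was at 195, 192 and 194 CPM in nc and 256, 260 and 239 CPM in siZNF514. The nc libraries differed little (coefficient of variation 0.613%), and it rose by 0.38 (SE 0.04, adjusted p = 0.000432), or by 0.25 with total counts alone.

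ANLN (ENSG00000011426; chromosome 7, 36389806 to 36453791, plus strand), or anillin, is the scaffold that ties RhoA, actin, myosin and septins together in the ring. It was at 427, 407 and 424 CPM in nc and 639, 645 and 610 CPM in siZNF514. The groups were far apart, and it rose by 0.59 (SE 0.04, adjusted p = 3.1e-05). 

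By exact permutation of the CPM values, two-sided, p was 0.1 for each of the 9 genes that rose, which is the lower limit with 3 libraries a side, and 0.3 for CKAP2.

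The sizes of the rises differed. The 95% interval of RACGAP1 (0.61 to 0.96) lay above those of ECT2 (0.28 to 0.48), PRC1 (0.16 to 0.39) and ASPM (0.14 to 0.39). DLGAP5, NUSAP1, ANLN and TPX2 had estimates of 0.56 to 0.65 with intervals that overlapped one another, so their order is not resolved. Neither is that of ECT2, PRC1 and ASPM. Among the 14250 genes tested, the estimates stood between the 71.7th percentile (ASPM) and the 95.5th (RACGAP1). Within siZNF514, replicate 3, the library that stood apart in some fibroblast and leukocyte markers, was the lowest of the 3 for 7 genes (PRC1, ASPM, DLGAP5, HMMR, ANLN, ECT2 and CKAP2) and the highest for TPX2. Replicate 1 was the lowest for NUSAP1 and TPX2 and the highest for 4 genes. Libraries of nc were uneven too: nc replicate 1 was the highest for 6 genes and nc replicate 2 the lowest for 5.

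**Figure D3:**
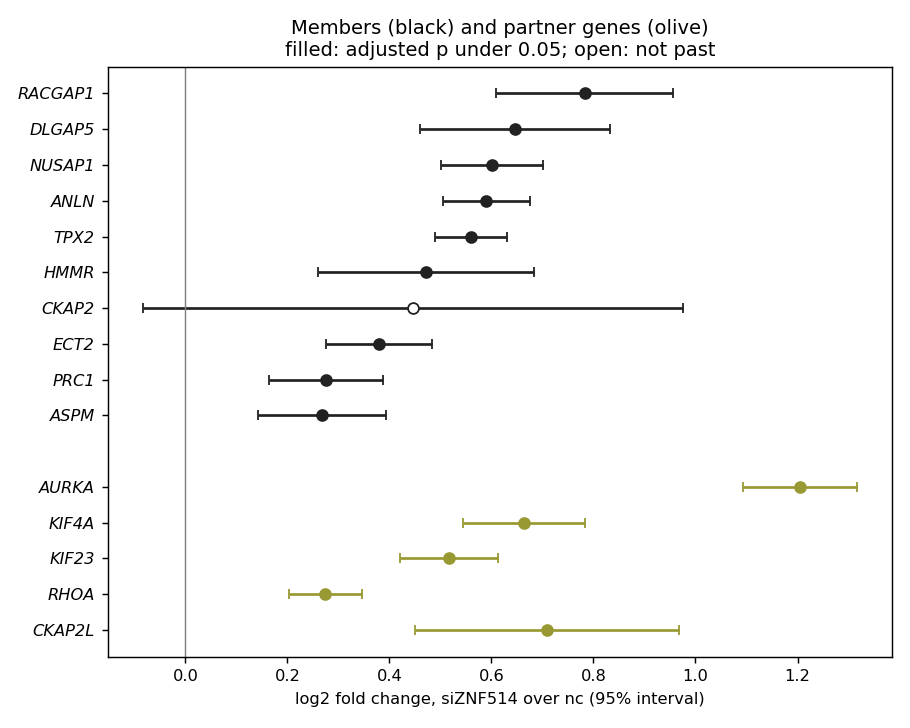
Log2 fold change of siZNF514 over nc (x axis) with its 95% interval for the 10 genes (black) and 5 partner genes (olive); filled points have an adjusted p under 0.05 in the edgeR test. RACGAP1 is highest of the 10 at 0.78, ASPM lowest at 0.27, CKAP2 is the open point, and AURKA lies beyond all of them at 1.20.

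Levels of different genes can be set side by side only per length. In the deposited FPKM the nc order ran from TPX2 (111 ± 2.4, SD, n = 3) and ANLN (46.1 ± 1.27) down to PRC1 (8.71 ± 0.341) and ASPM (4.02 ± 0.124). In siZNF514 the FPKM of these genes was 150 ± 0.764, 63.5 ± 2.02, 9.66 ± 0.215 and 4.44 ± 0.104 (SD, n = 3). ECT2, NUSAP1, RACGAP1, HMMR and CKAP2 lay close together, from 19.9 to 16.3 in nc, and CKAP2, with an SD of 4.14, could not be placed among them. FPKM carries no TMM scaling, so its ratios between groups are smaller than the fold changes above.

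The length behind each FPKM bears on that order. It was 3605 bases for TPX2, the same as its coding transcript in GENCODE 29, but 12669 for PRC1 and 6435 for NUSAP1. All GENCODE 29 exons of PRC1 and NUSAP1 together cover only 5525 and 2875 bases. Their transcripts with the longest coding sequence have 3034 and 1629 bases. Per kilobase of those transcripts, TPX2 (106 ± 1.95 CPM per kilobase, SD, n = 3) and ANLN (87.6 ± 2.25) still led in nc and ASPM (4.88 ± 0.167) was still last. NUSAP1 took place 3 at 71.4 ± 0.938, PRC1 moved from place 9 to place 6 at 34.8 ± 1.37, and HMMR moved from 6 to 8. The ends of the order therefore held under both lengths, and the middle did not. Places by the length of all exons together were not computed.

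**Figure D4:**
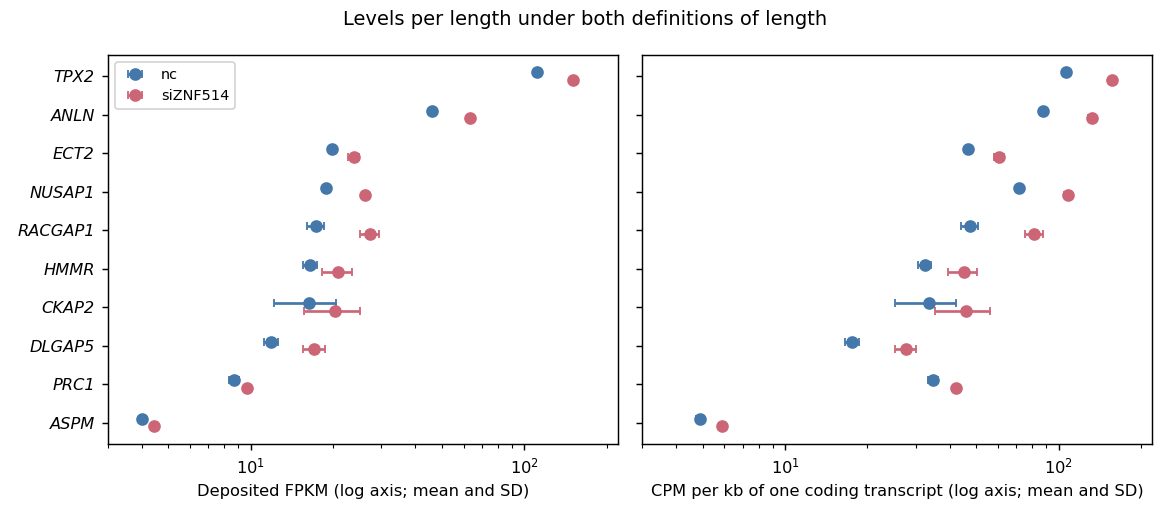
Level per length of the 10 genes on a log axis, as deposited FPKM (left) and as CPM per kilobase of the GENCODE 29 transcript with the longest coding sequence (right); points are means and bars SDs of 3 libraries, nc in blue and siZNF514 in red. TPX2 and ANLN lead and ASPM is last in both panels, while PRC1 and NUSAP1 stand higher in the right panel.

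Some reads could belong to neighbours or copies. KIAA0895 runs on the opposite strand across the start of ANLN and had 281 to 504 counts per library against 5380 to 8411 for ANLN. It had 281, 355 and 333 counts in nc and 464, 504 and 479 in siZNF514. Its log2 fold change was 0.59 (SE 0.09, edgeR adjusted p = 0.00143), as was that of ANLN, and shared reads were not tested. The antisense gene PRC1-AS1 overlaps PRC1 and had 0 to 4 counts per library, HMMR-AS1 and the CKAP2 copy CKAP2P1 had 0, the pseudogene RACGAP1P had 0 to 2 and SEPTIN14P12, inside ASPM, had 0 to 3. Apart from KIAA0895 these rows are small beside the 642 counts or more of each of the 10 genes. How counting shared reads between such rows is unknown, since the strand setting was not stated.

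Partner genes rose as well, by different amounts. AURKA, the kinase that TPX2 activates, went from 136 ± 1.67 to 313 ± 15.8 CPM (SD, n = 3), which is 1.20 on the log2 scale (SE 0.05). The FPKM ratio of TPX2 to AURKA was 5.1, 4.87 and 4.84 in nc and 2.98, 3.16 and 3.34 in siZNF514. The ratio was lower in every siZNF514 library than in every nc library (exact two-sided permutation p = 0.1, again the lower limit). KIF4A, the kinesin that PRC1 recruits, rose by 0.66 (SE 0.05), and the FPKM ratio of PRC1 to KIF4A was lower in siZNF514 (0.291 ± 0.0203) than in nc (0.38 ± 0.0105, SD, n = 3; exact permutation p = 0.1). The size of each FPKM ratio, here and below, depends on the lengths used, but its direction between groups does not. Per kilobase of the coding transcripts, TPX2 was at 106 and AURKA at 60.3 CPM in nc. PRC1 was then above KIF4A in nc, at 34.8 against 23.1 CPM per kilobase. All GENCODE 29 exons together cover 5525 bases in PRC1 and 4533 in KIF4A, for 106 and 100 CPM in nc. By those lengths PRC1 would be below KIF4A, so this order depends on the length used.

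KIF23, the other subunit of centralspindlin, rose by 0.52 (SE 0.04). The ratio of RACGAP1 to KIF23 was 1.68, 1.71 and 1.91 in nc and 2.33, 2.02 and 2.03 in siZNF514, again with no overlap (exact permutation p = 0.1). The ratio of ECT2 to RACGAP1 went the other way, from 1.16 ± 0.0804 to 0.873 ± 0.0675 (SD, n = 3; exact permutation p = 0.1). RHOA, which ECT2 activates and ANLN binds, rose from 578 ± 10.4 to 699 ± 15 CPM (SD, n = 3), or by 0.27 (SE 0.03) on the log2 scale, and by 0.15 with total counts alone. CKAP2L, a relative of CKAP2, rose by 0.71 (SE 0.11), and the ratio of CKAP2 to CKAP2L overlapped between groups (exact permutation p = 0.5). The adjusted p-values of these partners ran up to 0.00162 (CKAP2L) in the edgeR test. Each ratio restates the unlike fold changes of its genes. How often ratios of other gene pairs lie apart was not tested, so their separation is not particular to partners.

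**Figure D5:**
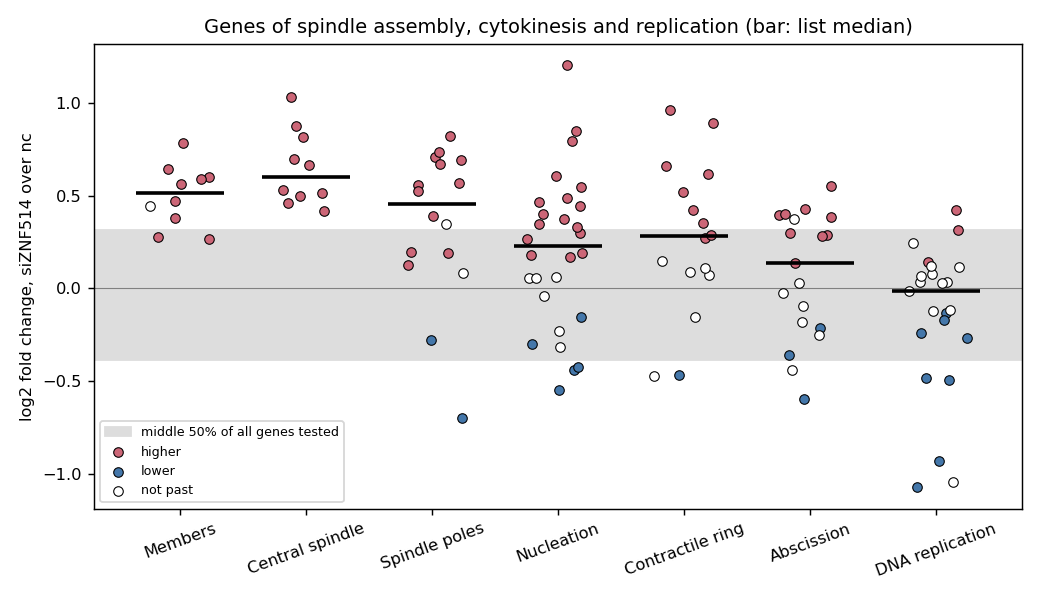
Log2 fold change of siZNF514 over nc (y axis) for the 10 genes and 6 lists of related genes (x axis); points are genes, red higher and blue lower at an adjusted p under 0.05, open not past, black bars are list medians, and the grey band spans the quartiles of all genes tested (-0.39 to 0.31). Central spindle genes lie above the band (0.42 to 1.03), and DNA replication genes centre near 0 (median -0.01).

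The wider lists ranged from uniform to mixed, and their counts stand beside 25.5% of all genes tested that rose and 25.1% that fell. Of 10 central spindle genes, 10 rose, with a median log2 fold change of 0.60. They include the chromosomal passenger subunits AURKB, INCENP, BIRC5 and CDCA8, which correct attachments and then move to the midzone. By the smallest p-values the leaders were KIF20A, a midzone kinesin (90.8 ± 3.15 to 166 ± 2.23 CPM, SD, n = 3), PLK1, the polo-like kinase that licenses ECT2 binding (97.9 ± 6.7 to 200 ± 7.29 CPM), and KIF4A. Of 16 spindle pole and microtubule-binding genes, 12 rose, 2 fell and 2 did not pass (median 0.46). SPAG5, or astrin, rose by 0.69 (SE 0.05) and the spindle orientation gene GPSM2 by 0.56 (SE 0.05), whereas the microtubule stabilizer CLASP1 fell from 87.3 ± 4.16 to 53.6 ± 0.397 CPM (SD, n = 3).

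Of 28 genes listed under microtubule nucleation, 17 rose, 5 fell and 6 did not pass (median 0.23). They cover the Ran pathway, Aurora A partners, augmin, the gamma-tubulin complex and spindle kinesins such as KIF15. With total counts alone 11 rose. AURKA, the kinesin KIF15 (0.80, SE 0.06) and the gamma-tubulin complex gene TUBGCP3 (0.55, SE 0.05) had the smallest p-values. Other genes of that complex differed: TUBGCP4 rose (0.19, SE 0.06) and TUBG1 (-0.30, SE 0.05) and TUBGCP2 (-0.16, SE 0.05) fell. TUBGCP5 and TUBGCP6 did not pass. Of 16 contractile ring genes, 9 rose, 1 fell and 6 did not pass (median 0.28). The heavy chain of nonmuscle myosin, MYH9, rose from 1590 ± 9.62 to 2510 ± 32.7 CPM (SD, n = 3), its light chain MYL12B rose by 0.89 (SE 0.04), and CIT, the citron kinase that acts with anillin in the late ring, rose by 0.96 (SE 0.05).

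Of 19 abscission genes, which cut the last bridge between daughter cells, 9 rose, 3 fell and 7 did not pass (63.2% called, against 50.6% of all genes; median 0.14), and 5 rose with total counts alone. CHMP2B (0.55, SE 0.08) and CHMP5 (0.30, SE 0.05; 0.17 with total counts alone) rose and CHMP3 fell (-0.36, SE 0.05), all ESCRT-III or ESCRT-III-associated proteins. CEP55, which recruits that machinery to the midbody, fell from 149 ± 2.82 to 128 ± 3.81 CPM (SD, n = 3; log2 fold change -0.21, SE 0.04; edgeR adjusted p = 0.00557; -0.34 with total counts alone), and was singled out after its values were seen. Of 23 DNA replication genes, expressed earlier in the cycle, 3 rose, 8 fell and 12 did not pass (median -0.01), and the 47.8% called are near the 50.6% of all genes. None of these lists was tested as a set, and their differences from the 10 genes were not tested.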

How the data were processed

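The authors deposited 1 table with whole-number counts and FPKM per gene for 6 libraries, per the file headers. Build hg38 and the tools StringTie 1.3.3b, HISAT2 2.0.4 and edgeR appear, without roles, in the submitters' processing notes. Annotation release and strand setting: not given in the sources used here. Deposited FPKM values equal the count over 1 length per gene and the library total; that length varied by at most 0.0791% between libraries over 22289 genes. Columns were matched by title. Genes were filtered by filterByExpr (edgeR 4.0.16, R 4.3.3; minimum count 10, minimum total 15), scaled by TMM and tested by the quasi-likelihood F test with Benjamini-Hochberg adjustment at 0.05. The SE is the size of the log2 fold change over the square root of F. At these depths 1 count is at most 0.0789 CPM. The procedure was tested on simulated data in which far fewer genes changed than passed here, so that test cannot judge the scaling used. Pairs within a group differed beyond sampling noise (chi-square per degree of freedom 7.43 to 9.69), so none was merged.

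Partner genes (AURKA, KIF4A, KIF23, RHOA, CKAP2L) were named whatever their result, with the 3 smallest p-values of 5 lists; 1 further partner is not reported here, and other genes were singled out after their values were seen. Genes and lists were chosen with earlier results of these data known. Alternatives were a replicate block, each library left out, DESeq2 1.42.0 size factors or Wald test, total counts alone, and other filters. Promoter windows are from RefSeq.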

Additional observations from a re-analysis of the deposited data

How the results depend on the processing

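In the 12 alternative fits, each of the 10 genes kept a log2 fold change above 0. Between 8 and 10 of them passed as higher, 9 in each fit that left out 1 library. The median of the 10 was 0.39 with total counts alone, which moved the median of all genes by -0.13 and left 2493 genes higher and 4775 lower (34.3% of calls higher; HAUS4 turned to -0.073), and 0.48 to 0.59 when a library was left out. In those 6 fits the log2 fold change of ZNF514 was -2.003 to -1.77, and 6310 to 6563 genes passed, 3197 to 3338 higher and 3104 to 3225 lower.

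With a replicate block CKAP2 passed (0.45, adjusted p = 0.00211), and 6640 genes passed in place of 7212. Deviations of same-numbered libraries correlated across genes at 0.00749, 0.0413 and -0.0358, so the numbers were not treated as pairs. Without siZNF514 replicate 2, contractile ring genes that fell numbered 2 in place of 1, and those that rose 10 in place of 9. A length per coding transcript was chosen after seeing the data. With 642 counts or more per gene and library, none of the 10 genes was near the limit of counting.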

Other observations

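Genes named here were singled out after their values were seen. The 8 augmin subunits, which branch new microtubules from old ones as 1 complex, did not move together. HAUS7 (0.85, SE 0.14), HAUS8 (0.35, SE 0.07; 0.22 with total counts alone) and HAUS6 (0.17, SE 0.05) rose, while HAUS1 (-0.55, SE 0.11), HAUS3 (-0.44, SE 0.08) and HAUS5 (-0.43, SE 0.08) fell, with edgeR adjusted p-values from 0.00207 for HAUS7 to 0.0204 for HAUS6. HAUS2 (-0.23, SE 0.12) and HAUS4 (0.05, SE 0.09) did not pass. With total counts alone HAUS6 no longer passed (0.04, adjusted p = 0.472) and HAUS2 did (-0.36, adjusted p = 0.0411). HAUS6 also did not pass without nc replicate 1 (0.17), nc replicate 3 (0.16) or siZNF514 replicate 2 (0.16), and HAUS2 passed without siZNF514 replicate 3 (-0.37). Septins, the filaments that anillin binds, included SEPTIN6, which fell (-0.47, SE 0.10; edgeR adjusted p = 0.00606), and SEPTIN9, which did not pass and had 1752, 3383 and 1912 counts in the siZNF514 libraries against 3076, 3651 and 3170 in nc. Without siZNF514 replicate 2, SEPTIN9 passed as lower (-0.83, adjusted p = 0.000197). SEPTIN2 (0.07, SE 0.04), SEPTIN7 (0.09, SE 0.14) and SEPTIN11 (-0.15, SE 0.42) did not pass with all libraries. In SEPTIN11 siZNF514 replicate 2 was the low library, with 1697, 441 and 1486 counts in siZNF514 against 1343, 1447 and 1285 in nc.

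Replicate 3 of both groups was the lowest library for CKAP2 and the highest for the proliferation marker MKI67, which had 1472, 1541 and 2456 counts in nc and 1688, 1451 and 3840 in siZNF514. Between the groups MKI67 overlapped and did not pass (log2 fold change 0.34, SE 0.38, edgeR adjusted p = 0.491). CDC6 and PCNA, which act in DNA replication, fell by 1.07 and by 0.93 on the log2 scale. They do not stand for the 23 DNA replication genes, whose median was -0.01. Of those, 8 fell in all, and MCM7 (0.42), POLE (0.31) and RFC3 (0.14) rose.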
